A study of Homo sapiens with 20 samples.

Results

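Sites of accessible chromatin that were called in SW872 cells expressing YAP-TFE3 and had no counterpart in cells carrying the empty vector (EV) were compared with sites found in both and with sites found only in EV. The peak list of YAP-TFE3 held 235795 peaks and that of EV held 171102 peaks, of 1407450 peaks in the 7 lists of the series. A peak was shared if it overlapped a peak of the other list by 1 bp or more. A gained site was a YAP-TFE3 peak with a summit −log10 p of 6 or more and no EV peak within 1 kb, and a lost site was an EV peak that met the same rule against the YAP-TFE3 list. By this rule 6128 sites were gained and 77 were lost, while 116334 YAP-TFE3 peaks and 138581 EV peaks were shared. Peaks with a summit −log10 p of 6 or more are called strong below.

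The cells were SW872, an established human liposarcoma line, and the assay was ATAC-seq, which sequences the fragments that a transposase cuts from accessible DNA. All cells were stably transduced with retroviral vectors and selected as pooled lines, so that EV cells had also been infected and drug selected. YAP-TFE3 and EV had 3 libraries each, and so had CAMTA1, TAZ-CAMTA1, TAZ4SA and YAP5SA, whereas TFE3 had 2. The sample titles of the fusion read Yap5SA-TFE3, and the title of the third EV library carries the word redo. Only 1 list was deposited per vector, so replicate error cannot be given and no difference was tested. Library depth is unknown. Intervals are Wilson 95% intervals and cover counting error only.

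YAP-TFE3 is the rarer of the fusion proteins found in epithelioid hemangioendothelioma, a vascular sarcoma. It joins the amino terminus of YAP, which binds the TEAD transcription factors, to the carboxy terminus of TFE3, a basic helix-loop-helix leucine zipper factor of the MiT/TFE family that binds E-box elements. YAP and its paralogue TAZ are coactivators held in check by the Hippo pathway, and YAP5SA and TAZ4SA are mutants of them that the LATS kinases of this pathway cannot silence by phosphorylation. The comparison with EV asks which accessible sites accompany the fusion, and the lists of YAP5SA and TFE3 serve as its full-length counterparts. The positions are those of hg19 (GRCh37). Genes, motifs and sequences at the sites were not analysed here.

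Gained sites outnumbered lost sites 79.6 to 1, but they were a small part of the list. They made up 2.6% of all YAP-TFE3 peaks and 7.62% of the 80465 strong ones. Lost sites made up 0.045% of all EV peaks and 0.164% of the 46845 strong ones. Among strong peaks, 71799 of the YAP-TFE3 list and 46727 of the EV list were shared.

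Most peaks that did not overlap the other list were weak. Of 119461 such YAP-TFE3 peaks, 61458 were weak and further than 1 kb from any EV peak, 49337 were weak and nearer, and 2538 were strong but within 1 kb of an EV peak. Of 32521 such EV peaks, 14236 were weak and far, 18167 weak and near, and 41 strong and near. Strong peaks were 7.25% of the non-overlapping YAP-TFE3 peaks (7.11 to 7.40%) and 0.363% of the non-overlapping EV peaks (0.303 to 0.434%).

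The excess of gained over lost sites was present at every minimum of −log10 p examined, and its size depended on that minimum. At a minimum of 5 there were 15909 gained and 635 lost sites, and at 7 there were 2323 and 5. At 8 or more, 795 gained sites and no lost site remained. A value of 12 or more was reached by 9 gained sites.

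**Figure D1:**
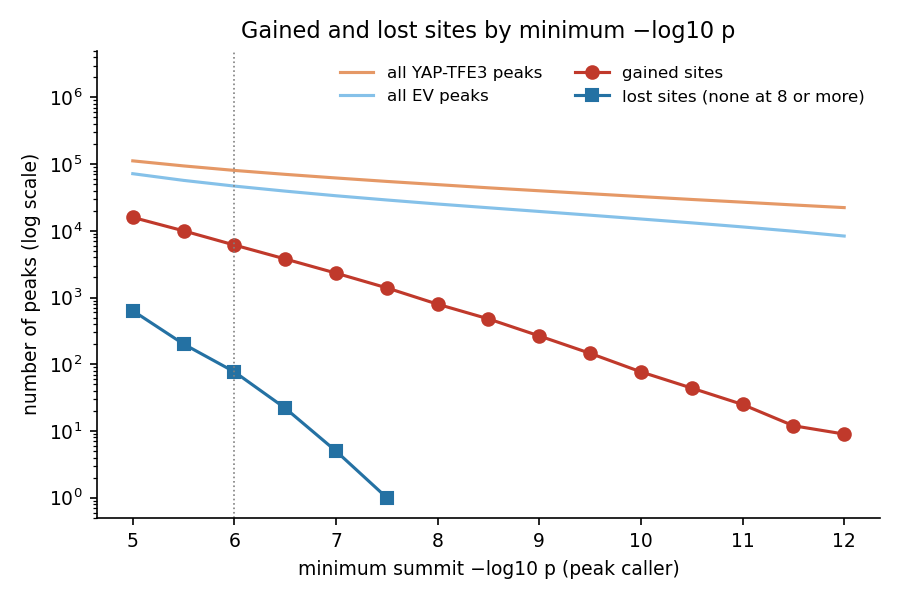
Number of gained sites (circles), lost sites (squares) and all peaks of each list (lines without points) by the minimum summit −log10 p, on a log count axis, with the minimum of 6 dotted. Gained sites decline from 15909 at 5 to 9 at 12, and lost sites from 635 at 5 to 1 at 7.5.

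The YAP-TFE3 list also held 80465 strong peaks against 46845 in EV, and the same minimum therefore cut the lists at different ranks. When the YAP-TFE3 minimum was raised to 8.23, which left 46845 strong peaks as in EV, 635 sites were gained (1.36% of those peaks) and the ratio to the 77 lost sites was 8.25. When instead the EV minimum was lowered to 4.78, which gave 80465 peaks, 1077 sites were lost and the ratio was 5.69. Both settings were chosen after the values had been seen. Under either, gained sites remained the more numerous. However, gained sites were still screened against 171102 EV peaks and lost sites against 235795 YAP-TFE3 peaks. With both lists cut to 171102 peaks at the minimum of 6, lost sites rose to 183. No setting equalized both strong peaks and list length, so whether the excess outlasts the difference between the lists was not tested.

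The shared peaks showed the same tilt toward YAP-TFE3. The lists merged into 262470 regions, of which 110488 held peaks of both and 84917 held exactly 1 peak of each. In these pairs the area under the curve, the summed caller statistic of a peak, had a median of 470 in YAP-TFE3 and 137 in EV, and it was higher in YAP-TFE3 in 87.3% of pairs. In the 25948 pairs that were strong in both lists, the median areas were 3250 and 1402, the median ratio was 2.04, and YAP-TFE3 was higher in 97.0%. The summit −log10 p of those pairs had medians of 12.01 and 8.53 and was higher in YAP-TFE3 in 95.8%. Pairs with a YAP-TFE3 value from 6 to below 7 had a median of 4.68 in EV, and pairs with an EV value in that range had a median of 8.47 in YAP-TFE3. The part of this general difference between the lists in the numbers of gained and lost sites was not tested, and a difference in library depth and one in accessibility cannot be told apart in these lists.

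Gained sites were weaker and narrower than the strong shared peaks of their own list. Because the rule sets the minimum of −log10 p and requires distance from EV peaks, these values are descriptions. The median −log10 p was 6.71 for gained sites (5th to 95th percentile 6.06 to 8.89) and 9.49 for strong shared YAP-TFE3 peaks (6.26 to 19.1). A value of 10 or more was reached by 1.26% of gained sites and by 45.3% of strong shared peaks. The median area was 525 against 1676. The highest −log10 p among gained sites was 15.2, and among shared YAP-TFE3 peaks 59.7.

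Gained sites had a median width of 353 bp, and strong shared YAP-TFE3 peaks of 800 bp. Peaks of 1000 bp or more were 2.25% of gained sites (1.91 to 2.65%) and 39.9% of strong shared peaks (39.5 to 40.2%). At the other end, 18.9% of gained sites and 6.32% of strong shared peaks were narrower than 200 bp. The summit lay near the middle of the peak in both, at a median of 49.7% and 49.9% of the width.

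Part of the difference in width also stood within bands of −log10 p below 10. From 6 to below 7, gained sites had a median width of 293 bp and shared YAP-TFE3 peaks of 352 bp. From 8 to below 10 the medians were 561 and 644 bp, and from 10 to below 20 they were 751 and 1373 bp. The area per base pair was much closer, with 1.51 and 1.45 from 6 to below 7 and 2.10 and 2.11 from 8 to below 10. Within the bands below 10, gained sites were thus narrower with a similar mean height. From 10 to below 20 they were also lower, with 2.80 against 3.57, but strength was not equal in that band. Only 9 of its 77 gained sites reached 12, whereas 22297 of the 32582 YAP-TFE3 peaks of 10 or more did. Strength was not matched further within any band.

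Lost sites sat close to the minimum. Their median −log10 p was 6.26, their highest 7.56, and 93.5% of them lay from 6 to below 7, against 62.1% of gained sites and 28.2% of strong shared EV peaks. Their median area was 419 and their median width 342 bp, against 1246 and 827 bp for strong shared EV peaks. Lost and gained sites were similar in width, and lost sites had the smaller area per base pair (1.20 against 1.63). The shared peaks of the lists differed in the same direction. From 6 to below 7, lost sites had 1.216 and shared EV peaks 1.175, while gained sites had 1.507 and shared YAP-TFE3 peaks 1.446.

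**Figure D2:**
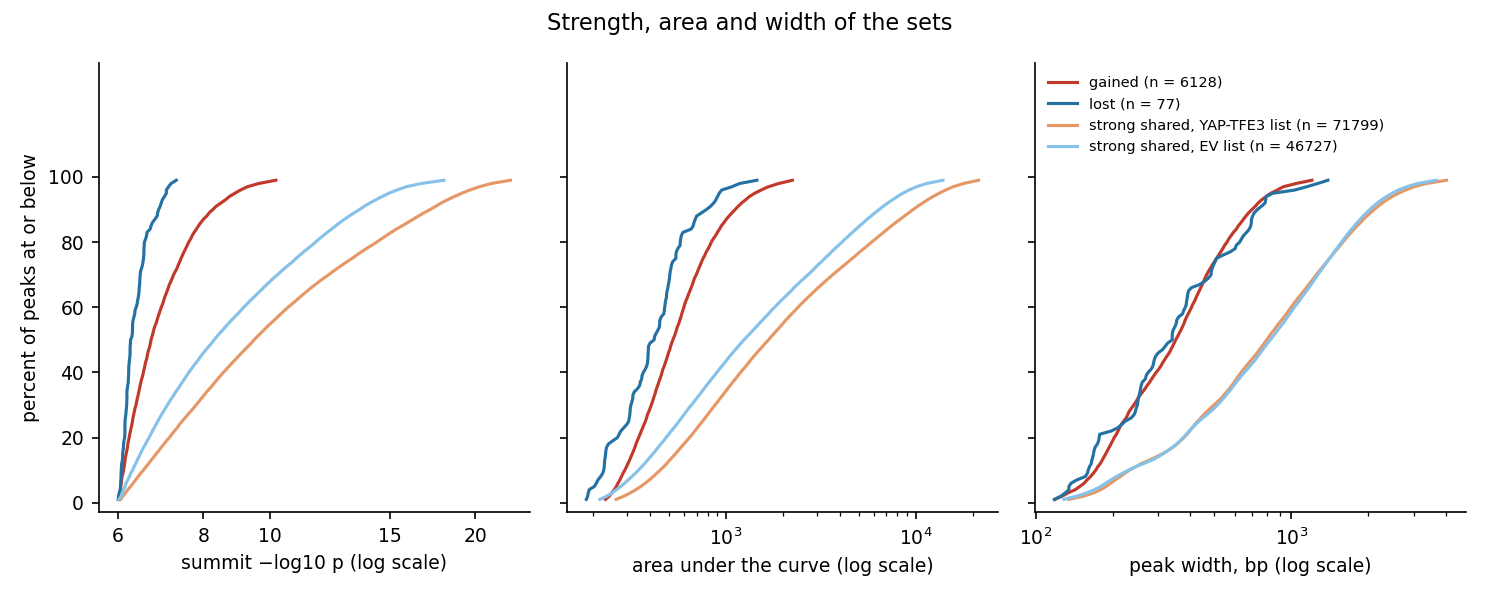
Percent of peaks at or below each value of summit −log10 p, area under the curve and width in bp (log axes), from the 1st to the 99th percentile, for gained sites, lost sites and the strong shared peaks of either list. From the median upward, gained and lost curves lie left of both shared curves in each panel, with median widths of 353 and 342 bp against 800 and 827 bp.

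Members just inside and just outside the rule were much alike. The 1085 gained sites within 0.2 above the minimum had a median −log10 p of 6.09, an area of 348 and a width of 252 bp. The 1329 peaks within 0.2 below it that met the distance rule had 5.90, 310 and 241 bp. The 199 gained sites up to 200 bp beyond the 1 kb limit had a median −log10 p of 6.71 and a width of 347 bp, and the 270 strong peaks up to 200 bp inside it had 6.63 and 336 bp. For EV these counts were 28 and 31 at the minimum and 3 and 5 at the distance limit.

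The 10 strongest gained sites came from 8 chromosomes, and none had an EV peak within 7 kb. The strongest was chr5:94416771-94418294, 1524 bp wide, with a −log10 p of 15.2, an area of 4294 and the nearest EV peak 19.0 kb away. It was far weaker in other lists, with 5.77 in TAZ4SA, 5.21 in YAP5SA and 3.91 in CAMTA1, and neither TAZ-CAMTA1 nor TFE3 had a peak there. The second, chr3:97731866-97733343, reached 13.1, with an area of 4928, and its highest value elsewhere was 5.06 in TAZ-CAMTA1. The third, chr5:87811813-87812697, reached 12.5, against 6.62 in TAZ-CAMTA1, and was absent from the TAZ4SA and TFE3 lists. These leading sites had far lower values in the other lists, but ranking by the YAP-TFE3 value by itself favours such a difference.

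Other sites among the 10 were also strong elsewhere. At chr9:93063586-93064054 the value was 12.5 in YAP-TFE3, 11.1 in YAP5SA and 8.85 in CAMTA1, and all 5 other lists had a peak. At chr20:31961539-31962454 it was 12.4, with values from 6.52 in TFE3 to 9.10 in CAMTA1. At chr16:9161858-9162575 it was 12.3, with values from 5.79 in TAZ-CAMTA1 to 8.86 in CAMTA1. At these 3 sites, then, EV was the list without a peak.

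The remaining 4 lay between these patterns. At chr7:73647926-73648769 the value was 12.2, and TAZ-CAMTA1 reached 8.24. At chr12:58636428-58637352 it was 12.1, and TAZ-CAMTA1 reached 6.18. At chr11:79235163-79235808 it was 12.1, with all 5 other lists present and YAP5SA highest at 7.41. At chr7:18547997-18549525 it was 11.96, with YAP5SA at 7.82 and the nearest EV peak 162.5 kb away. TFE3, the full-length partner, had no peak at 5 of the 10 sites, and where present it lay between 4.78 and 6.52. The widest gained site, chr19:49381389-49385307, spanned 3919 bp but reached only 6.89.

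For scale, the shared peak with the largest area was the same locus in both lists. It was chr1:228744063-228784393 in YAP-TFE3 (40331 bp, −log10 p of 26.0) and chr1:228744063-228784311 in EV (40249 bp, 20.3).

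Most gained sites were held, in the sense of an overlap of 1 bp or more, by lists other than YAP-TFE3. The CAMTA1 list held 87.2% (86.4 to 88.0%) and the TAZ-CAMTA1 list 87.0% (86.1 to 87.8%), although CAMTA1 belongs to another protein family than YAP and TFE3. YAP5SA held 71.3% (70.2 to 72.4%) and TFE3 held 69.8% (68.7 to 71.0%). TAZ4SA held 42.1% (40.8 to 43.3%). The full-length counterparts of the fusion thus did not hold the largest shares. CAMTA1 and TAZ-CAMTA1 also led among strong shared YAP-TFE3 peaks and among YAP-TFE3 peaks without an EV overlap, so their lead was not particular to gained sites. The lists differed in length, from 152702 peaks in TAZ4SA and 156421 in TFE3 to 223651 in CAMTA1, 230886 in YAP5SA and 236893 in TAZ-CAMTA1. With every list cut to its 152702 strongest peaks, CAMTA1 held 76.4% of gained sites, TAZ-CAMTA1 74.7%, TFE3 68.7% and YAP5SA 57.9%. The shares of the 3 longer lists thus moved with list length, and TFE3 then stood above YAP5SA. The cut removed few peaks from the TFE3 list, so its share could hardly move. In the full lists YAP5SA without TFE3 held 933 gained sites and TFE3 without YAP5SA held 843. The shares are of the same sites, so their separate intervals do not compare them.

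Strong shared YAP-TFE3 peaks were held more often by each list. CAMTA1 held 99.4% of them and TAZ-CAMTA1 99.8%, while TFE3 held 98.3%, YAP5SA 95.8% and TAZ4SA 81.5% (58549 peaks). All 5 other lists held 28.4% of gained sites (27.3 to 29.5%) and 79.6% of strong shared peaks. Either 4 or 5 lists held 61.6% of gained sites and 96.0% of strong shared peaks. All YAP-TFE3 peaks without an EV overlap, most of them weak, were held less often than gained sites. CAMTA1 held 46.9% of them, TAZ-CAMTA1 57.0%, YAP5SA 35.5%, TFE3 23.5% and TAZ4SA 14.6%, and 4 or 5 lists held 15.3%. Gained sites thus lay between these backgrounds in every list.

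The most frequent combinations of lists were those that included CAMTA1, TAZ-CAMTA1, TFE3 and YAP5SA. All 5 lists held 1738 sites, and all but TAZ4SA held 1496. Next came CAMTA1, TAZ-CAMTA1 and TFE3 without the YAP and TAZ mutants (566 sites), then CAMTA1, TAZ-CAMTA1 and YAP5SA (306) and the CAMTA1 and TAZ-CAMTA1 pair alone (305). Single lists held few: TAZ-CAMTA1 alone 171, CAMTA1 alone 95, YAP5SA alone 61, TAZ4SA alone 27 and TFE3 alone 7.

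Of the full-length counterparts of the fusion, both YAP5SA and TFE3 held 56.1% of gained sites (54.8 to 57.3%). YAP5SA without TFE3 held 15.2%, TFE3 without YAP5SA held 13.8%, and neither held 14.9%. Of these last 915 sites, 678 lay in the CAMTA1 or the TAZ-CAMTA1 list. Among strong shared peaks, both held 94.6% and neither held 0.511%. Among all YAP-TFE3 peaks without an EV overlap, both held 14.1% and neither held 55.1%.

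Presence in a list did not mean equal strength. Where TFE3 held a gained site, its median −log10 p was 4.47 against 6.82 in YAP-TFE3, it was lower at 99.9% of 4280 sites, and only 1.98% of all gained sites reached 6 in the TFE3 list. Where YAP5SA held one, the medians were 5.24 and 6.80, and 23.5% of gained sites reached 6. CAMTA1 had medians of 5.48 against 6.74 and reached 6 at 31.2%, TAZ-CAMTA1 5.33 against 6.74 and 26.0%, and TAZ4SA 4.88 against 6.90 and 9.01%. The minimum of 6 was applied to YAP-TFE3 alone, which by itself favours the higher value there. The TFE3 list was also lower than YAP-TFE3 at 98.8% of the strong shared peaks it held, and it rests on 2 libraries.

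YAP-TFE3 had the highest value of the 6 lists other than EV at 73.0% of gained sites and at 53.1% of its strong shared peaks. Both sets were chosen by their YAP-TFE3 value, and gained sites also by the absence of EV peaks. The sets differ in strength as well, with median −log10 p of 6.71 and 9.49, so the values of this paragraph are descriptions. No other list reached 6 at 2934 gained sites (47.9%). The margin over the highest other list had a median of 0.764 among gained sites held by another list, with a 5th to 95th percentile of −1.84 to 2.86, and it was 3 or more at 232 sites.

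Gained sites held by 4 or 5 other lists were somewhat stronger than those held by fewer, among which there was no rise with the number of lists. The median −log10 p was 6.55 for the 210 sites in no other list, 6.44 for those in 1 list, 6.49 in 2, 6.55 in 3, 6.76 in 4 and 7.08 in all 5. A value of 8 or more was reached by 5.71% of sites in no other list and by 23.1% of those in all 5.

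The 210 sites called in YAP-TFE3 alone were 3.43% of gained sites (3.00 to 3.91%). As a background, 25.1% of all YAP-TFE3 peaks without an EV overlap, most of them weak, were in no other list. Among strong shared YAP-TFE3 peaks the share was 0.0167%. The strongest was chr12:88703129-88704196, with a −log10 p of 9.86, an area of 2393 and the nearest EV peak 166 kb away. The next were chr5:82879244-82880285 with 9.24, chr10:19206627-19207303 with 8.99, chr17:10338389-10338815 with 8.94 and chr5:162781281-162782310 with 8.53. Their distances to the nearest EV peak were 6.18, 257.5, 107 and 4.04 kb. Even the strongest of them lay below the 10 leading gained sites.

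Lost sites had another order of lists. YAP5SA held 75.3% (64.7 to 83.6%), CAMTA1 74.0% (63.3 to 82.5%), TAZ4SA 71.4% (60.5 to 80.3%), TAZ-CAMTA1 64.9% (53.8 to 74.7%) and TFE3 29.9% (20.8 to 40.9%). TAZ4SA thus held a larger share of lost than of gained sites, and TFE3 a smaller one, with intervals that did not overlap. As a background in the EV list, TAZ4SA held 92.9% of strong shared EV peaks and 15.1% of EV peaks without a YAP-TFE3 overlap, TFE3 held 99.5% and 10.9%, and YAP5SA held 99.0% and 26.1%. Lost sites lay between these values in all 3 lists, and nearest to the low end in TFE3. TAZ4SA values at lost sites were about those of EV, with medians of 6.36 and 6.35. Both YAP5SA and TFE3 held 19.5% of lost sites, and YAP5SA without TFE3 held 55.8%.

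**Figure D3:**
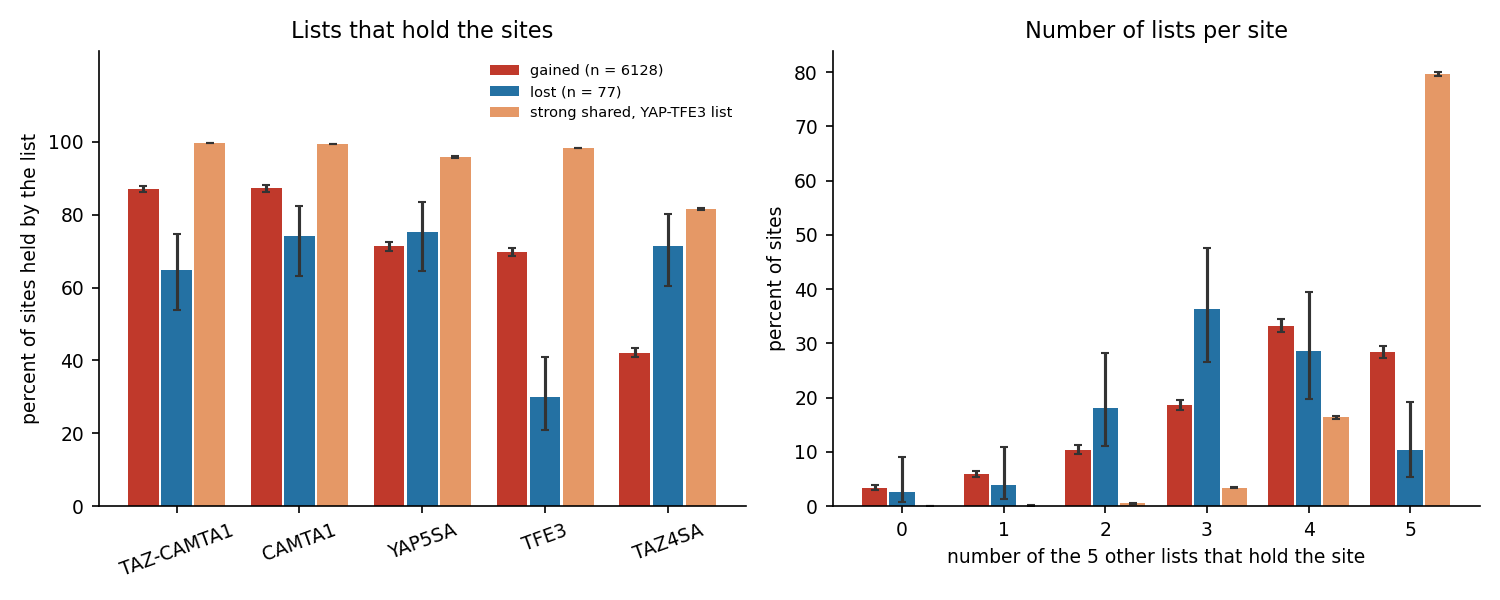
Left, percent of gained sites, lost sites and strong shared YAP-TFE3 peaks held by each of the 5 other lists, and right, percent by the number of those lists that hold the site, with Wilson 95% intervals as bars. TAZ4SA holds 42.1% of gained and 71.4% of lost sites, TFE3 69.8% and 29.9%, and all 5 lists hold 28.4% of gained sites against 79.6% of strong shared peaks.

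The same rule applied to the other vectors against EV gave counts that share the EV list and are set side by side. YAP5SA had 7282 gained and 309 lost sites, CAMTA1 3622 and 28, TAZ-CAMTA1 3099 and 49, TAZ4SA 1870 and 2123, and TFE3 130 and 203. Per 100 strong peaks of the list, the gained sites were highest for YAP5SA (10.5), then YAP-TFE3 (7.62), CAMTA1 (4.92), TAZ4SA (4.20), TAZ-CAMTA1 (4.14) and TFE3 (0.274). For gained sites YAP-TFE3 therefore lay between its full-length counterparts, nearer to YAP5SA, but so did CAMTA1, TAZ4SA and TAZ-CAMTA1 lie between them. Lost sites per 100 strong EV peaks were 0.164 for YAP-TFE3, below both YAP5SA (0.660) and TFE3 (0.433). The TFE3 list rests on 2 libraries. TFE3 and TAZ4SA, the shortest lists, had more lost than gained sites.

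The 5 strongest lost sites were mostly present elsewhere. At chr5:157850572-157851362 the EV value was 7.56, and TAZ-CAMTA1 had 7.96 and CAMTA1 6.55. At chr1:2609986-2611338 it was 7.22, with 7.71 in TAZ4SA, and at chr8:86739108-86739865 it was 7.13, with 7.22 in TAZ4SA. At chr6:25229996-25230173 it was 7.06, and all 5 other lists had a peak, led by YAP5SA with 12.4 and CAMTA1 with 9.33. At chrY:28791233-28791409 it was also 7.06, again with all 5 other lists. Here YAP-TFE3 was the list without a peak. The 2 lost sites in EV alone, chr14:19722534-19722709 with 6.11 and chr5:63815475-63815767 with 6.06, were near the minimum.

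Gained sites lay on every chromosome but Y. Per 100 strong YAP-TFE3 peaks of a chromosome, the median over 23 chromosomes was 7.88. The lowest value was 4.45 on chromosome 20 (3.79 to 5.23), followed by 5.56 on chromosome 5 (5.01 to 6.17) and 5.87 on chromosome 14. The highest were 11.6 on chromosome 10 (10.4 to 12.9), 10.9 on chromosome 22 and 10.3 on chromosome 4 (9.25 to 11.5). The counting intervals of the lowest pair and the highest 3 did not overlap, but these chromosomes were picked as the extremes. Some gained sites also fell into runs, so the intervals do not test a difference between chromosomes. Chromosome X had 8.06, and chromosome Y had 0 gained sites among 78 strong peaks, which allows up to 4.69 per 100.

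Coverage by EV peaks, which the rule uses, differed between these chromosomes. The share of a chromosome's span within 1 kb of an EV peak was 20.1% on chromosome 20 and 15.5% on chromosome 5, against 5.12% on chromosome 10 and 4.52% on chromosome 4. On chromosome 22 it was 13.4%. Since a gained site must lie further than 1 kb from any EV peak, these values are given as a description and nothing is read from their relation to the gained sites. Per Mb, gained sites ranged from 1.05 on chromosome X to 5.17 on chromosome 22.

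**Figure D4:**
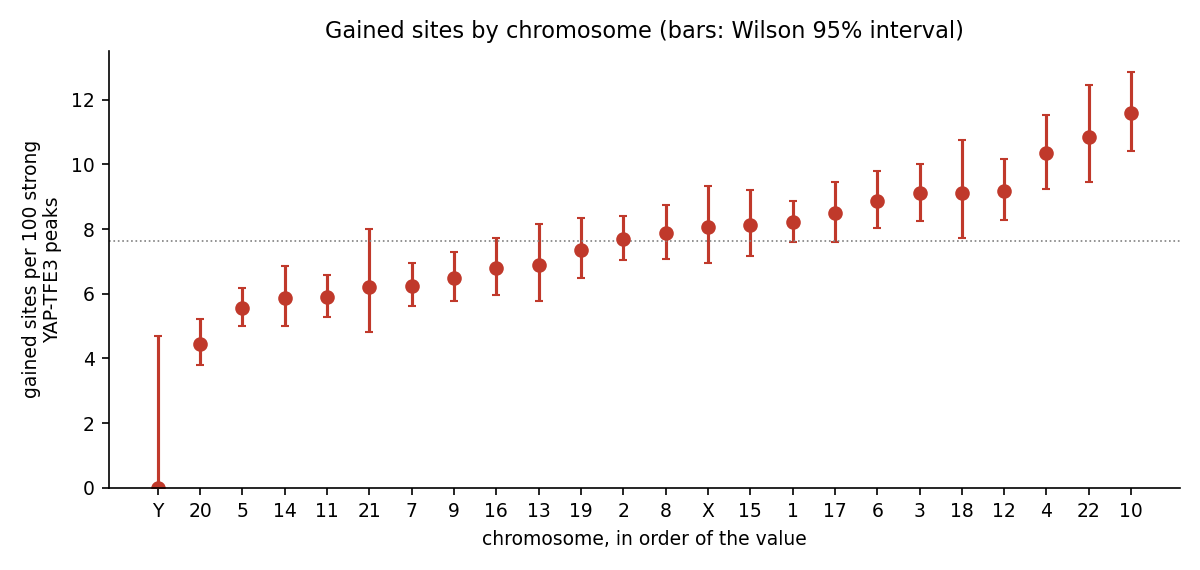
Gained sites per 100 strong YAP-TFE3 peaks for each chromosome, in order of the value, with Wilson 95% intervals and the value over all drawn chromosomes dotted. Chromosomes 20 and 5 lie lowest apart from Y, at 4.45 and 5.56, and chromosomes 10, 22 and 4 highest, at 11.6, 10.9 and 10.3.

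Smaller regions were examined in windows of 5 Mb, in which fewer strong peaks make the counting error larger than for whole chromosomes. In 488 windows with at least 50 strong peaks, gained sites per 100 strong peaks had a median of 7.71 and a 5th to 95th percentile of 2.83 to 14.7, and 2 windows had none. The highest was chr3:150000001-155000000, with 26 gained sites among 78 strong peaks (33.3%, 23.9 to 44.4%). It was followed by chr7:15000001-20000000, with 15 of 56 (26.8%), which holds one of the 10 strongest gained sites, and by chr10:50000001-55000000, with 11 of 50. These windows were picked as the highest of all.

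Neighbouring gained sites were 204 kb apart at the median, and strong shared YAP-TFE3 peaks 10.7 kb. The mean gaps were 478 and 40.8 kb, as follows from 6128 and 71799 members on the same chromosomes, so the distances themselves do not compare the sets. The ratio of the median to the mean gap was 0.428 for gained and 0.263 for strong shared peaks, where evenly random placement gives 0.693. Both ratios lay below that of even random placement. Another gained site lay within 20 kb of 23.3% of gained sites, and another strong shared peak within 20 kb of 83.4% of those peaks. The nearest EV peak was a median of 7.41 kb from a gained site. It lay within 5 kb of 38.9% of them, and 9.71% were more than 50 kb from any.

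**Figure D5:**
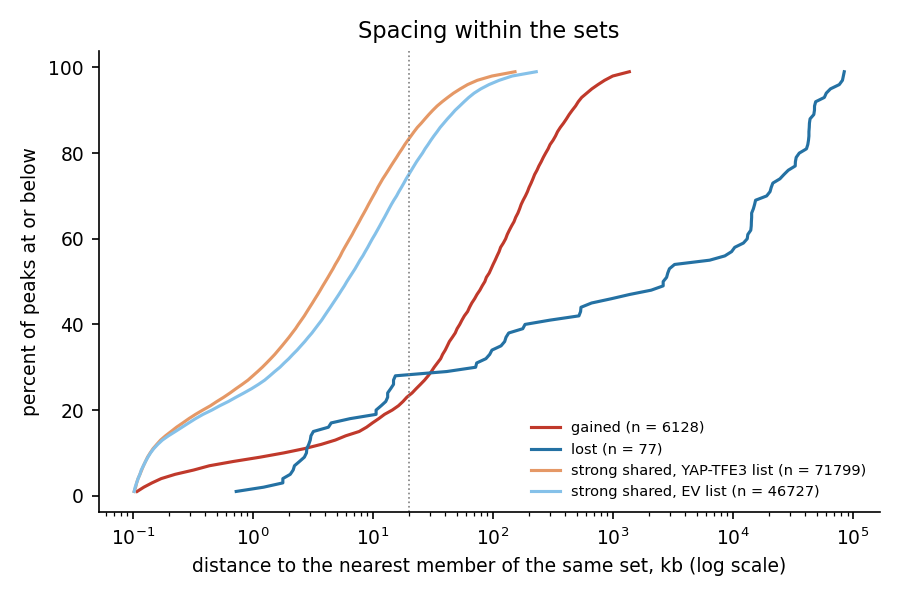
Percent of peaks whose nearest member of the same set lies at or below a distance in kb (log axis), from the 1st to the 99th percentile, for gained, lost and strong shared peaks, with 20 kb dotted. At 20 kb the values are 23.3% of gained sites, 29.3% of lost sites and 83.4% and 75.1% of strong shared YAP-TFE3 and EV peaks, and the number of members differs between the sets.

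When neighbours within 20 kb were joined, 4702 gained sites stood alone and 1426 fell into 641 runs. Of these runs, 526 had 2 sites, 94 had 3, 15 had 4, 5 had 5 and 1 had 7. The run with the most sites was chr19:28894631-28937769, with 7 gained sites among 23 YAP-TFE3 peaks and no EV peak over 43.1 kb. Its gained sites reached 9.50, and CAMTA1 held 5 of them, TAZ-CAMTA1 4, TAZ4SA and YAP5SA 3 each and TFE3 2.

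The strongest gained site of all lay in a run. In chr5:94405178-94423571, 19 YAP-TFE3 peaks and no EV peak fell within 18.4 kb, and 5 were gained sites with −log10 p from 6.01 to 15.2. TAZ-CAMTA1 and TFE3 held none of the 5, TAZ4SA and YAP5SA 2 each and CAMTA1 1. The run chr5:96961982-96965340 packed 5 gained sites into 3.36 kb, reached 11.4, and had 1 site in CAMTA1, 1 in TFE3 and none in the others. In chr5:15222381-15262068, TAZ-CAMTA1 held 4 of 5 sites and TFE3 none, and in chr6:164506571-164530769 TAZ-CAMTA1 held 2 of 5. The remaining run of 5, chr10:11239178-11278479, reached 7.85, and CAMTA1 and TAZ4SA each held 3 of its sites. Of the 5 runs with 5 sites, 3 were on chromosome 5, which held 5.42% of gained sites. These runs are few and were picked by their size, and a concentration on this chromosome was not tested.

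Lost sites were few. Chromosomes 1, 2 and 5 held 35 of the 77, with 15.6, 13.0 and 16.9% of lost sites against 8.92, 7.21 and 8.15% of strong EV peaks. Chromosomes 9, 15, 22 and X held none, which their 870 to 2452 strong EV peaks make a weak observation at 0.164 lost sites per 100. A total of 8 runs held 22 of them. The run chr2:90375173-90394520 had 5 lost sites, all held by TAZ4SA and YAP5SA and none by TFE3. The run chr1:2592369-2627619 also had 5, among 35 EV peaks and 3 YAP-TFE3 peaks, and again TAZ4SA and YAP5SA held all 5 while TAZ-CAMTA1 and TFE3 held none. A pair lay at chr5:46323469-46325987.

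Lost sites also lay more often beside the longest stretch of their chromosome that had no peak in any list, which on chromosome 1 was chr1:121485487-142535384. Within 5 Mb of that stretch lay 31 of 77 lost sites (40.3%, 30.0 to 51.4%), including the run on chromosome 2 and the pair on chromosome 5. The share was 6.25% for gained sites (5.67 to 6.89%), 6.91% for strong shared EV peaks and 8.74% for EV peaks without a YAP-TFE3 overlap. Without these positions 46 lost sites remained. This comparison was chosen after the positions had been seen.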

How the data were processed

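ATAC-seq peak lists of SW872 cells, 1 per vector, were analysed as deposited. The methods of the study give adapter removal with NGmerge, alignment with BWA-MEM to hg19 and peak calling with the ATAC-seq mode of Genrich, where PCR duplicates and blacklisted regions were taken out, whereas the submitters' processing notes name Bowtie 0.12.2 and a mouse build. The peak positions exceed the length of chromosome 1 in the newer human build, and hg19 was used. The methods describe calling on each replicate and a consensus set made afterwards, whereas each deposited list holds 1 set of peaks per vector. Whether its values come from 1 library, from pooled reads or from combined p-values is not given in the sources used here. For every peak the authors deposited a signal (the caller statistic summed over the peak, or area under its curve), the −log10 p at the summit and a capped score, together with adjusted values that were not used here. The signal and the −log10 p are the values in the text.

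Overlaps, distances and widths were computed with Python 3.11.15 and pandas 2.3.3, checked on simulated lists and against bedtools 2.31.1 (0 of 235795 distances differed). A list held a site if it overlapped it by 1 bp or more. Runs joined neighbours within 20 kb. The text names the 10 gained and 5 lost sites of highest −log10 p, the 5 strongest gained sites in no other list, the 5 gained and 3 lost runs with most sites (ties by summed area, with the tied gained run added later), and the shared peaks of largest area. The widest gained site, the lost sites in EV alone and the windows were added after their values were seen. The members, lists and rules were chosen with earlier results of these data known. Alternatives were other minima, distances and overlaps, lists of equal length, autosomes only, and regions without many weak peaks. Genes, motifs and sequences were not analysed here, since the genome used by the lists was not at hand.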

Additional observations from a re-analysis of the deposited data

How the results depend on the processing

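No paired analysis was possible because each vector has 1 list with no values per library, and leaving out libraries, the replicate block, motif windows and nearest genes were not run for lack of such values or of an hg19 genome. Of 130 values under alternatives, 57 moved by less than the counting interval or 1.5 times, and 73 moved further. The order of YAP5SA and TFE3 as holders of gained sites turned with every list cut to equal length. It also turned, by a small margin (83.3 against 83.5%), at a minimum of 8. Cutting both lists to equal length kept all strong YAP-TFE3 peaks and so left the chromosome values as they were by construction. The depth behind each list is unknown and limits every count. Shares below are in the order CAMTA1, TAZ-CAMTA1, YAP5SA, TFE3, TAZ4SA and no other list. The causes of the moves were not tested.

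With a minimum −log10 p of 5, 15909 sites were gained and 635 lost (ratio 25.1), the shares of gained sites were 76.5, 78.4, 59.0, 53.7, 31.1 and 7.11%, and those of lost sites 56.7% (CAMTA1), 52.4% (YAP5SA), 46.6% (TAZ4SA) and 11.7% (none). Median width and area were then 248 bp and 299 for gained and 223 bp and 182 for lost sites. With a minimum of 8, 795 sites were gained and 0 lost, so that no ratio or lost share could be given, the gained shares were 94.0, 92.7, 83.3, 83.5, 61.6 and 1.51%, and the median width and area were 579 bp and 1160. Without a distance, 118 sites were lost and the gained shares were 88.2% (CAMTA1), 89.3% (TAZ-CAMTA1), 71.0% (TFE3) and 2.61% (none). With none within 5 kb, 3745 were gained and 36 lost, with gained shares of 84.99, 83.9, 69.5, 66.0 and, for none, 4.54%, and 0% of lost sites in no other list.

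With both lists cut to 171102 peaks, 183 sites were lost (ratio 33.5), held by CAMTA1 at 87.4%, TAZ-CAMTA1 at 75.4% and TFE3 at 42.1%. With every list cut to 152702 peaks, the gained shares were 76.4, 74.7, 57.9, 68.7 and, for none, 6.84%, so that TFE3 then held more gained sites than YAP5SA, and lost shares were 53.3% (CAMTA1) and 40.3% (TAZ-CAMTA1). Counting a list as a holder within 1 kb gave gained shares of 89.1, 88.7, 75.8, 72.8, 46.6 and 2.43%, and lost shares of 83.1% (CAMTA1) and 0% (none). An overlap of 50% of both peaks left 71761 shared YAP-TFE3 peaks. Outside 274 of 5489 bins of 500 kb with most weak peaks, the median gap of lost sites was 14204 kb.

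Alternatives chosen after seeing the data gave 635 gained sites (ratio 8.25; shares 94.0, 93.5, 84.1, 83.9, 62.7 and 1.10%) with the raised YAP-TFE3 minimum, 1077 lost sites (ratio 5.69) with the lowered EV minimum, and 46 lost sites away from the longest peak-free stretches.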
